A study of Mus musculus with 6 samples.

Results

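The *Hox* genes of cultured mouse satellite cells (SCs), the stem cells of skeletal muscle, were chosen by symbol, as every gene of the deposited table named *Hox* with a cluster letter a to d and a number. These were 39 of the 55416 genes listed, 11 in HoxA, 10 in HoxB, 9 in HoxC and 9 in HoxD, and the antisense and other noncoding genes of the clusters were not among them. RNA was sequenced from 3 libraries of wild-type (WT) SCs and 3 libraries of SCs lacking *Ltf*, the gene of the secreted iron-binding protein lactoferrin (*Ltf*-KO). The *Ltf*-KO mice carried a systemic CRISPR-Cas9 deletion made in C57/BL6N zygotes, so that every cell type of the animal lacked the gene, and the mice of the study were 8 to 10 weeks old unless its methods specify otherwise. SCs were taken from hind leg muscle, sorted as Sca1-, CD11b-, CD34+ and α7-integrin+ cells, and grown on Matrigel for 4 days in serum-rich medium with basic fibroblast growth factor and no other treatment in either genotype. Nothing in the labels says whether the 3 libraries of a genotype came from separate animals, so that the p-values below measure the spread between these libraries, which may be technical.

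Hox proteins are homeodomain transcription factors that give cells their position along the body axis and along the limb. Their genes lie in 4 clusters, and the place of a gene within its cluster, numbered as its paralog group from 1 to 13, follows the order in which the genes are used from head to tail. The high-numbered genes of HoxA and HoxD pattern the limb from shoulder or hip to digit, those of HoxC are used in hindlimb more than in forelimb, and adult cells of muscle and connective tissue often keep part of the pattern that their embryonic ancestors had.

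Levels are given as TPM, a transcript abundance corrected for gene length and scaled to the same total in each library, so that levels can be compared between genes but read depth cannot be seen. The 6 libraries summed to between 993650 and 994356 TPM. *Ltf* itself was listed at 0.12, 0.02 and 0.02 TPM in WT and at 0.02, 0.03 and 0 TPM in *Ltf*-KO libraries, so that it was near 0 in both genotypes and did not tell the labels apart. The myogenic factors *Myod1*, *Myf5* and *Pax7*, which define SCs and myoblasts, were present in all 6 libraries, with *Myod1* between 747.62 and 815.74 TPM and *Pax7* between 36.62 and 43.30 TPM. The 7 macrophage and leukocyte markers summed to 12.15 to 18.05 TPM in WT and 9.86 to 12.87 TPM in *Ltf*-KO libraries. Most of this was *Cd14*, at 6.27 to 8.18 TPM, *Cd68*, at 3.12 to 3.98 TPM, and *Lyz2*, at 0.38 to 7.22 TPM. On the same list, *Ptprc* and *Adgre1* reached at most 0.16 and 0.08 TPM. The summed level of the 11 fibroblast markers was 111 to 116 TPM in WT and 109 to 144 TPM in *Ltf*-KO libraries, of which *Col3a1* made up 88.0 to 118 TPM, and that of the 6 smooth muscle and pericyte markers was 415 to 499 and 459 to 599 TPM, nearly all of it *Acta2*. Of these, *Pdgfrb*, a growth factor receptor of pericytes and fibroblasts, was at 3.73, 3.89 and 4.71 TPM in WT and 6.95, 7.51 and 4.80 TPM in *Ltf*-KO libraries. All 3 *Ltf*-KO libraries were above all 3 WT libraries, at a difference of 0.52 on the log2(TPM + 1) scale with a limma unadjusted p = 0.017 and adjusted p = 0.999. The nearest libraries, at 4.71 and 4.80 TPM, were close. Of all genes tested, 2.01% were higher at an unadjusted p under 0.05 (limma) and 4.73% were higher without overlap. On the same list, *Acta2*, *Myh11* and *Rgs5* had higher means in *Ltf*-KO, and *Cnn1* and *Kcnj8* had lower ones. Apart from *Acta2* and *Pdgfrb* these markers were low. *Myh11* reached at most 0.62 TPM, *Kcnj8* 0.14 TPM and *Cnn1* 2.89 TPM, the last in WT replicate 1. *Rgs5* was at 0.12 to 0.18 TPM in WT and 0.23 to 0.46 TPM in *Ltf*-KO libraries, which did not overlap. The 6 Schwann cell markers summed to 21.1 to 37.4 and 25.2 to 37.1 TPM and the 6 endothelial markers to 6.21 to 14.8 and 5.98 to 13.7 TPM. These cells can also use *Hox* genes, and their part in the levels below was not tested. In bulk RNA, fewer cells of a type and less RNA per cell cannot be told apart.

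SCs of the hind leg used HoxA and HoxC, and hardly any HoxB or HoxD. Summed over its genes, HoxA was at 94.6 ± 1.84 TPM in WT and 96.1 ± 2.48 TPM in *Ltf*-KO SCs (SD, n = 3 each), and HoxC was at 96.0 ± 1.32 and 93.0 ± 1.72 TPM (SD, n = 3 each). HoxD was at 4.18 ± 0.43 and 4.70 ± 0.49 TPM, and HoxB at 1.78 ± 0.45 and 2.19 ± 0.91 TPM (SD, n = 3 each). In every library HoxA held 47.5% to 49.4% of all *Hox* TPM, HoxC 46.7% to 49.6%, HoxD 1.91% to 2.62% and HoxB 0.61% to 1.47%. The sum over all 39 genes was 196.26, 194.41 and 199.12 TPM in WT and 196.71, 200.09 and 191.04 TPM in *Ltf*-KO libraries, and the genotypes overlapped.

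Within the clusters, the level lay mostly in paralog groups 9 to 11. The 6 genes of these groups in HoxA and HoxC, which pattern the trunk's lower end and the upper and middle limb, held 67.0% to 69.4% of all *Hox* TPM in each library. All genes of groups 9 to 13 together held 71.5% to 74.3%, those of groups 5 to 8 held 19.8% to 22.2% and those of groups 1 to 4, which act in the hindbrain and neck, held 5.93% to 6.52%. Group 10 was the highest single group, at 54.85 to 60.77 TPM, followed by group 9 at 37.47 to 45.65 TPM and group 11 at 34.67 to 38.43 TPM. The ranges of groups 9 and 11 overlapped, but within every library group 9 was above group 11. The nearest were 38.95 and 38.43 TPM, in *Ltf*-KO replicate 1. Group 12, at 0.82 to 1.72 TPM, and group 13, at 6.05 to 7.62 TPM and used in the embryo for the digits and the tail end, were far below them.

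**Figure D1:**
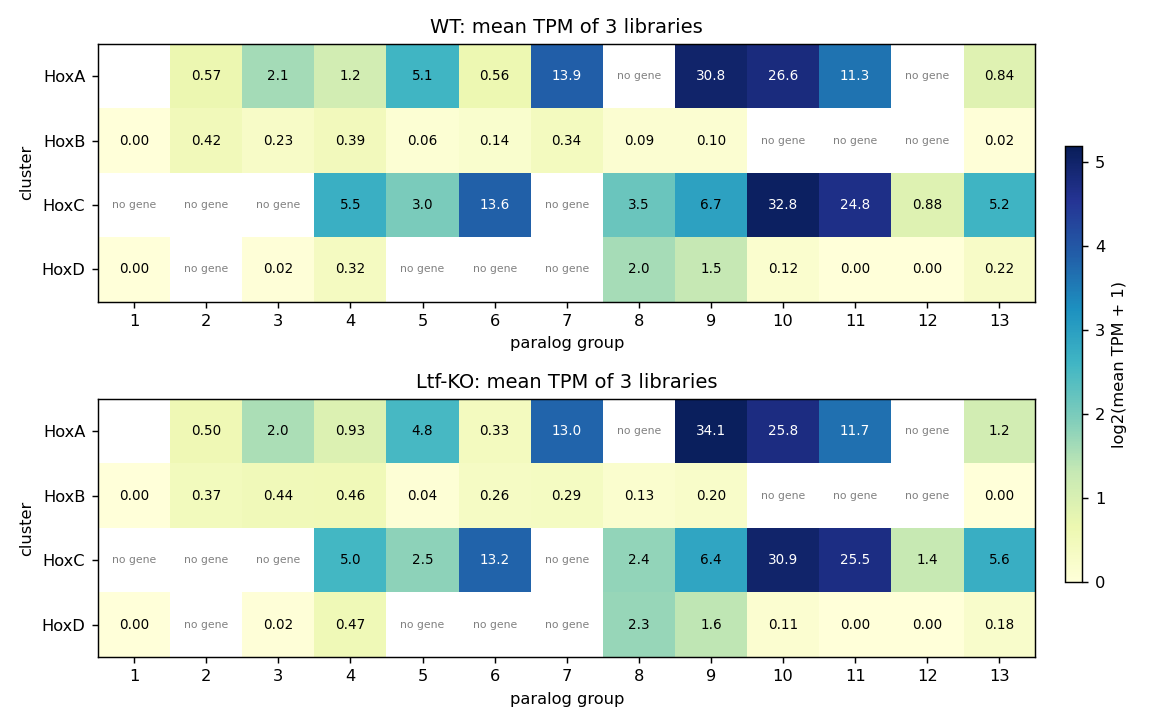
Mean TPM of the *Hox* genes over 3 WT libraries (top) and 3 *Ltf*-KO libraries (bottom), by cluster (rows) and paralog group (columns), with the colour on a log2(mean TPM + 1) scale. The dark cells of HoxA and HoxC in groups 9 to 11 lie in the same places in both genotypes, while the HoxB row stays under 1 TPM.

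Of the 39 genes, 20 averaged 1 TPM or more over all 6 libraries and 27 were above 0 in all 6. Single libraries held 17 to 20 *Hox* genes at 1 TPM or more. All 9 HoxC genes, 9 of the 11 HoxA genes and 2 HoxD genes, *Hoxd8* and *Hoxd9*, reached the mean of 1 TPM, and 0 of the 10 HoxB genes did.

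Genes of groups 9 to 11 stood at the top. *Hoxa9* was at 30.26, 30.12 and 31.95 TPM in WT and 30.41, 36.45 and 35.49 TPM in *Ltf*-KO libraries. *Hoxc10*, a gene of the lumbar region and the hindlimb, was at 33.36, 31.71 and 33.28 TPM in WT and 32.87, 29.90 and 29.97 TPM in *Ltf*-KO libraries. The ranges of these genes overlapped each other, so that their order could not be told from these libraries. *Hoxa10*, which acts in the upper limb segment, was at 25.37, 27.08 and 27.23 TPM in WT and 26.97, 24.83 and 25.68 TPM in *Ltf*-KO libraries, and *Hoxc11* was at 25.30, 25.43 and 23.71 TPM in WT and 25.67, 25.26 and 25.51 TPM in *Ltf*-KO libraries. These too overlapped each other and between genotypes. *Hoxa11*, which acts in the middle limb segment, was lower, at 11.83, 11.09 and 10.96 TPM in WT and 12.76, 11.73 and 10.51 TPM in *Ltf*-KO libraries. *Hoxc9*, a gene of the trunk, was at 8.04, 5.96 and 6.24 TPM in WT and 6.70, 7.17 and 5.35 TPM in *Ltf*-KO libraries, and the genotypes overlapped in both genes.

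The genes of the more anterior groups were led by *Hoxa7* and *Hoxc6*, which act in the thoracic region. *Hoxa7* was at 12.44, 13.63 and 15.50 TPM in WT and 13.26, 13.20 and 12.51 TPM in *Ltf*-KO libraries. *Hoxc6* was at 13.88, 12.95 and 13.84 TPM in WT and 12.09, 14.76 and 12.65 TPM in *Ltf*-KO libraries. Both were level with each other and overlapped between genotypes. *Hoxa5* lay between 4.34 and 6.01 TPM over the 6 libraries and *Hoxa3* between 1.89 and 2.20 TPM, again with overlapping genotypes. *Hoxa6*, between *Hoxa5* and *Hoxa7* in the cluster, was under the minimum mean of 1 TPM, at 1.51, 0 and 0.16 TPM in WT and 0.11, 0.87 and 0 TPM in *Ltf*-KO libraries, and 1 WT library alone was above 1 TPM. The level thus did not change smoothly along HoxA.

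The genes of groups 12 and 13 were low. *Hoxc13*, known for its part in hair and nail, was at 4.75, 4.87 and 5.98 TPM in WT and 6.01, 5.40 and 5.47 TPM in *Ltf*-KO libraries. *Hoxc12* was at 0.90, 0.93 and 0.82 TPM in WT and 0.87, 1.72 and 1.72 TPM in *Ltf*-KO libraries, with 2 *Ltf*-KO libraries above all WT libraries and the other one among them. *Hoxa13*, which acts in hand and foot, was at 1.25, 0.94 and 0.33 TPM in WT and 1.49, 1.33 and 0.66 TPM in *Ltf*-KO libraries, which overlapped, and it lay exactly at the minimum mean. *Hoxa4*, of the neck region, averaged slightly above it, at 1.13, 0.98 and 1.38 TPM in WT and 0.75, 1.41 and 0.64 TPM in *Ltf*-KO libraries.

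**Figure D2:**
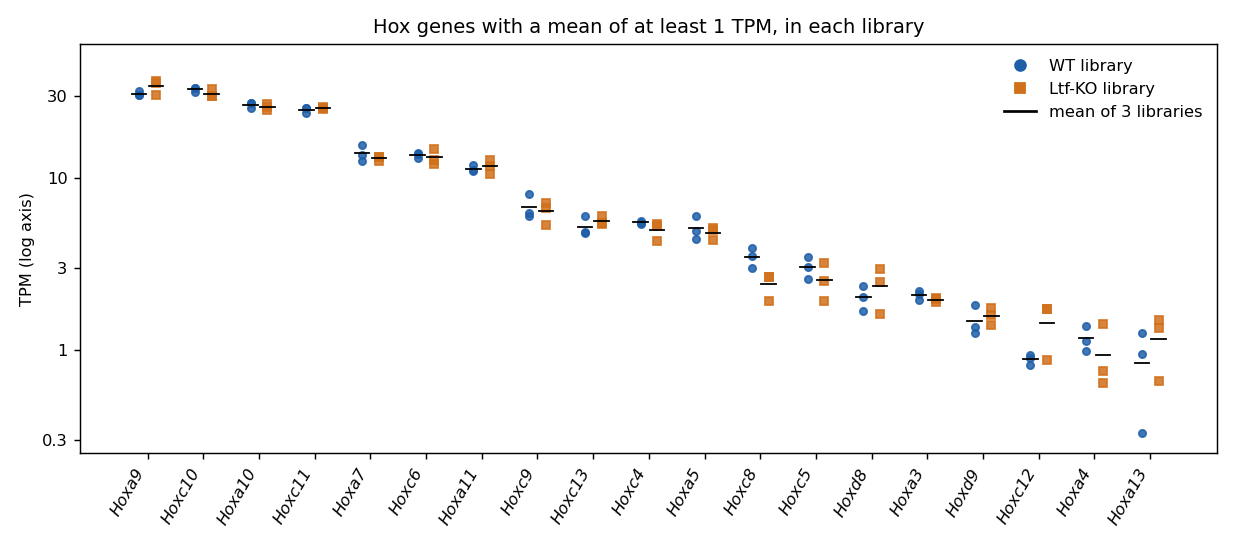
TPM (log axis) of 19 *Hox* genes averaging 1 TPM or more in each of the 3 WT (circles) and 3 *Ltf*-KO (squares) libraries, with a bar at the mean of each genotype. The libraries lie close together for the 7 genes above 10 TPM and spread more among the low genes, and the genotypes are apart in *Hoxc8* and *Hoxc4* alone.

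HoxD, which is used in the embryonic limb bud from hip to digit, was nearly silent in these cells. *Hoxd8* was at 2.04, 1.68 and 2.36 TPM in WT and 1.61, 2.47 and 2.94 TPM in *Ltf*-KO libraries. *Hoxd9* was at 1.82, 1.36 and 1.25 TPM in WT and 1.60, 1.74 and 1.39 TPM in *Ltf*-KO libraries, and the genotypes overlapped in both. The other 7 HoxD genes were at 0.84 TPM or less in every library, and *Hoxd1*, *Hoxd11* and *Hoxd12* were listed at 0 in all 6. *Hoxd10* was at 0 to 0.26 TPM and *Hoxd13*, the digit gene, at 0 to 0.42 TPM. Within the same paralog groups, *Hoxa10* and *Hoxc10* were thus at 24.83 to 33.36 TPM where *Hoxd10* stayed under 1 TPM, and *Hoxa11* and *Hoxc11* at 10.51 to 25.67 TPM where *Hoxd11* was listed at 0. In HoxB, the highest value of any gene in any library was 0.70 TPM, of *Hoxb4*, and *Hoxb1* was listed at 0 in all 6.

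Of the coding genes beside HoxB, the 2 nearest on one side were near 0 and those on the other were not, and around HoxD the adjacent coding genes other than *Evx2* were expressed. In GENCODE M21 on GRCm38, HoxA lies on chromosome 6 from 52155590 to 52260880, HoxB on chromosome 11 from 96194316 to 96368256, HoxC on chromosome 15 from 102921103 to 103036852 and HoxD on chromosome 2 from 74668310 to 74765142. Next to *Hoxb1*, *Skap1* was at 7.94 to 9.18 TPM, and beyond *Hoxb13* *Ttll6* was listed at 0 in all 6 libraries and *Calcoco2* was at 0 to 0.09 TPM. Next to *Hoxd1*, the mitochondrial import gene *Mtx2* was at 23.62 to 40.16 TPM, and beyond *Hoxd13* *Lnpk* was at 18.99 to 22.33 TPM. *Evx2*, the homeobox gene between *Hoxd13* and *Lnpk*, was listed at 0 in all 6 libraries, as was *Evx1* beside *Hoxa13*. The active clusters had active neighbours too, with *Skap2* and *Hibadh* at 12.13 to 15.04 and 29.76 to 36.20 TPM around HoxA and *Calcoco1* and *Smug1* at 33.07 to 36.62 and 14.72 to 19.26 TPM around HoxC.

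**Figure D3:**
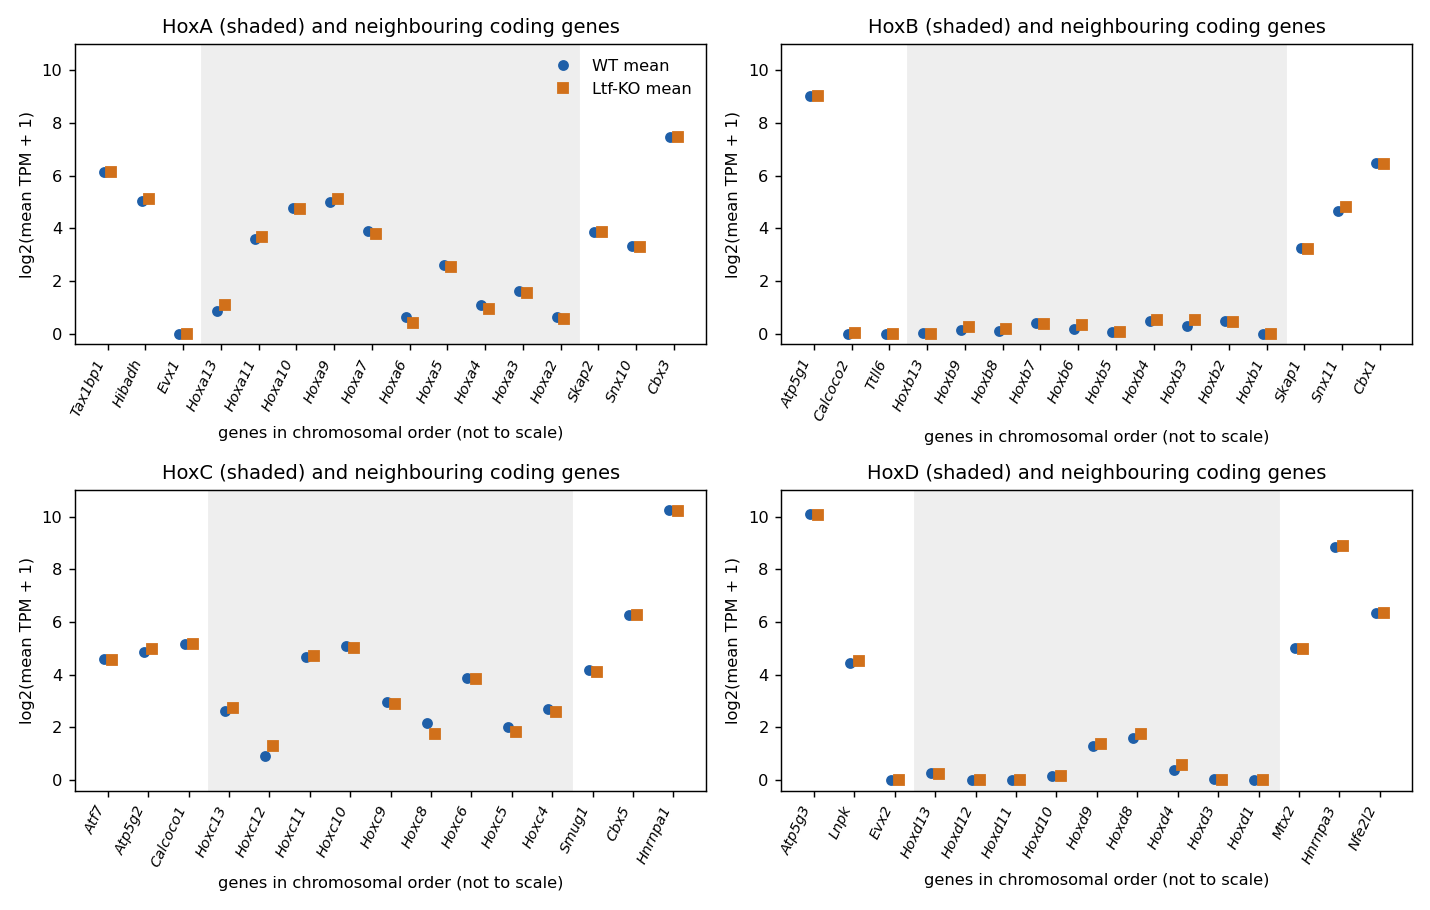
Mean level of the *Hox* genes shown (shaded) and of the 3 nearest neighbouring coding genes on each side, as log2(mean TPM + 1), in chromosomal order and not to scale, in WT (circles) and *Ltf*-KO (squares). HoxA and HoxC rise around groups 9 to 11, HoxB and most of HoxD lie at the bottom of the axis, as do *Ttll6*, *Calcoco2* and *Evx2* beside them, while *Skap1*, *Mtx2* and *Lnpk* lie higher.

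The promoters of 2 active genes, *Hoxa10* and *Hoxa11*, and of their low or unexpressed HoxD paralogs, *Hoxd10* and *Hoxd11*, are shown as the 250 bases before the most upstream RefSeq start of each gene, on GRCm38.p6, with every CG dinucleotide in capitals. They lie at chr6:52240855-52241104 on the minus strand for *Hoxa10*, chr6:52245811-52246060 on the minus strand for *Hoxa11*, chr2:74691641-74691890 on the plus strand for *Hoxd10* and chr2:74679308-74679557 on the plus strand for *Hoxd11*.
Hoxa10: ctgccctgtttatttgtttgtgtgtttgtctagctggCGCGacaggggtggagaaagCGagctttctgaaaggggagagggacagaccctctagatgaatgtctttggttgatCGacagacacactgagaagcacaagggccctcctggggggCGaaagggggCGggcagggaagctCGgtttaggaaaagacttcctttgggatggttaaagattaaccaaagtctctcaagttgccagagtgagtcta
Hoxd10: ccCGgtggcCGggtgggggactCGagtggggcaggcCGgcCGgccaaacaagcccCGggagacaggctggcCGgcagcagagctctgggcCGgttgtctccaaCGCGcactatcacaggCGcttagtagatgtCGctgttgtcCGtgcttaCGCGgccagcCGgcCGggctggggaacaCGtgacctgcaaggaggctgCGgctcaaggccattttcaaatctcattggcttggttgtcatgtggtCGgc
Hoxa11: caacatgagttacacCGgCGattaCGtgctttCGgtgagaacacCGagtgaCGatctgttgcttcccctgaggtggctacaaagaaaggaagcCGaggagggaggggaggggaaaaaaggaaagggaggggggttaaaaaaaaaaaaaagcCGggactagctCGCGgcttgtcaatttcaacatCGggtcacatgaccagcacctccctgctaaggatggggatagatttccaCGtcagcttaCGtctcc
Hoxd11: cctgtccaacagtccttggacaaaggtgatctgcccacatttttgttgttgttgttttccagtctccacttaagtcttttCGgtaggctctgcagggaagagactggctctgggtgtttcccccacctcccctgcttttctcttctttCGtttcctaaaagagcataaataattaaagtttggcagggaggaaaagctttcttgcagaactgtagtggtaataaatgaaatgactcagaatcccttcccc
The number of CG in these windows was 7 for *Hoxa10*, 20 for *Hoxd10*, 13 for *Hoxa11* and 2 for *Hoxd11*. The active gene thus had fewer than its low or unexpressed paralog in group 10 and more in group 11. RefSeq windows of 300 bases, 250 before and 50 after the start, were at hand for 22 of the 39 *Hox* genes, 9 of HoxA, 3 of HoxB, 1 of HoxC and 9 of HoxD. They held a median of 13.5 CG, against 7 over all 27025 genes with such a window in RefSeq, and 18 of the 22 lay above that median. The 10 *Hox* genes at a mean of 1 TPM or more had a median of 13.5 CG (4 to 45) and the 12 genes under it a median of 13.5 (4 to 37), so that the medians were equal.

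*Ltf*-KO SCs were compared with WT SCs to ask whether the loss of lactoferrin changes the *Hox* pattern. The 20 *Hox* genes averaging 1 TPM or more were tested among all 12956 genes at that level, with limma on log2(TPM + 1), and fold changes on this scale are understated for genes of low TPM. The other 19 *Hox* genes fell under this minimum, and 4 of them were listed at 0 in every library. Without the minimum, the other 15 could be tested as well, and 0 of these had an unadjusted p under 0.05 (limma). Of the 20 genes, 0 had a Benjamini-Hochberg adjusted p under 0.05, as did 0% of all genes tested, and the smallest adjusted p of a *Hox* gene was 0.999 (limma). The difference was negative, lower in *Ltf*-KO, for 11 of the 20 genes, where 44.3% of all genes tested were negative, and positive for 9. The median log2 fold change was -0.04 over the *Hox* genes and 0.01 over all genes tested, and the *Hox* genes ranged from -0.39 to 0.35.

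*Hoxc8*, a gene of the thoracic region, was the 1 *Hox* gene at an unadjusted p under 0.05, where 3.78% of all genes tested were and 1.78% were in the direction of a lower level in *Ltf*-KO. It was at 3.0, 3.91 and 3.50 TPM in WT and 2.66, 1.92 and 2.65 TPM in *Ltf*-KO libraries, and all 3 *Ltf*-KO libraries were below all 3 WT libraries. The difference on the log2 scale was -0.39 (standard error 0.14), with a limma unadjusted p = 0.030 and adjusted p = 0.999. It did not pass the adjusted test. *Pdgfrb*, of pericytes and fibroblasts, was higher in the same 3 libraries, while other markers of its list went either way. Of the 7 tested fibroblast markers, 6 were higher in *Ltf*-KO and *Cd34* was lower, and 0 had an unadjusted p under 0.05 (limma). Their median log2 fold change was 0.19, against 0.01 over all genes tested, of which 44.3% were lower. The part of such cells in the *Hoxc8* difference was not tested. *Hoxc4*, a gene of the neck and shoulder region, was also without overlap, at 5.49, 5.42 and 5.62 TPM in WT and 4.31, 5.40 and 5.22 TPM in *Ltf*-KO libraries, but 2 of its *Ltf*-KO libraries were close to WT. Its difference was -0.13 (standard error 0.097), with a limma unadjusted p = 0.230 and adjusted p = 0.999. These were 2 of the 20 *Hox* genes, both lower, where the libraries of 8.46% of all genes tested did not overlap and 3.73% were lower without overlap. Of the *Hox* genes 0 were higher without overlap, where 4.73% of all genes tested were.

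The summed level of HoxC was 97.29, 94.66 and 96.03 TPM in WT and 94.38, 93.44 and 91.05 TPM in *Ltf*-KO libraries, which also did not overlap, although the lowest WT library and the highest *Ltf*-KO library were close. Within HoxC, *Hoxc4*, *Hoxc5*, *Hoxc6*, *Hoxc8*, *Hoxc9* and *Hoxc10* had negative differences and *Hoxc11*, *Hoxc12* and *Hoxc13* positive ones, and those of *Hoxc6* and *Hoxc9* changed sign when a library was left out. *Hoxc5*, the neighbour of *Hoxc4* on the chromosome, was at 2.57, 3.48 and 3.04 TPM in WT and 3.20, 1.91 and 2.51 TPM in *Ltf*-KO libraries, which overlapped.

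For the 7 *Hox* genes averaging 10 TPM or more, the log2 fold changes lay between -0.08 and 0.14, and the bounds of their 95% intervals between -0.29 and 0.32. The largest was that of *Hoxa9*, at 0.14 (standard error 0.076, limma unadjusted p = 0.110, adjusted p = 0.999), with 1 *Ltf*-KO library among the WT libraries and the other two above. Over the 20 tested genes, the 95% interval lay within 2-fold either way on the log2(TPM + 1) scale for 20, within 1.5-fold for 15 and within 1.2-fold for 5. The widest were those of *Hoxa13*, *Hoxc12* and *Hoxa4*, all of low level. For such genes these bounds do not limit the difference in TPM itself, which this scale understates. With a pseudocount of 0.1 the log2 fold change was 0.51 (standard error 0.55) for *Hoxa13* and 0.59 (standard error 0.35) for *Hoxc12*.

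**Figure D4:**
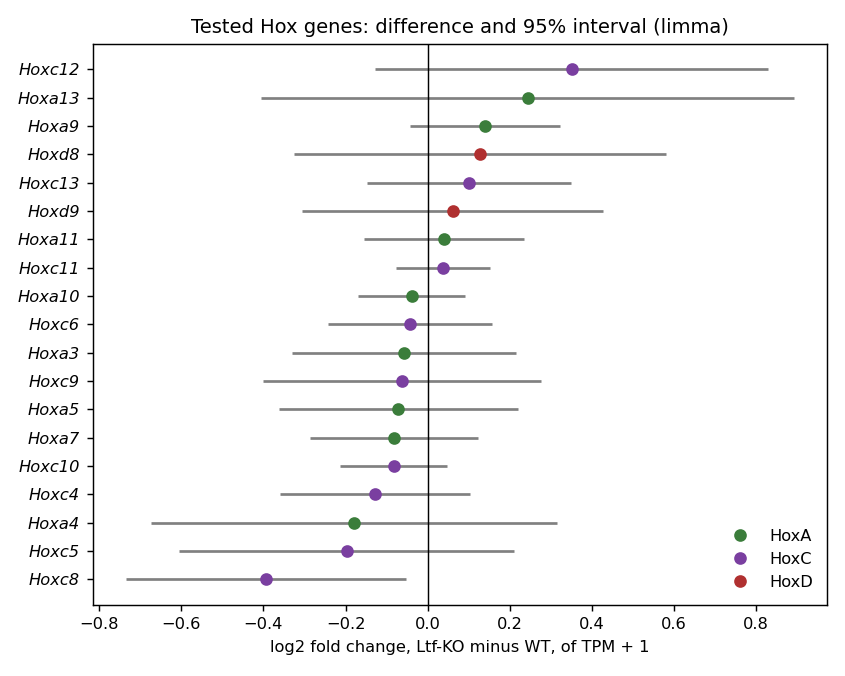
Log2 fold change of *Ltf*-KO minus WT on the log2(TPM + 1) scale (points, coloured by cluster) with its 95% interval from limma (lines) for 19 of the 20 tested *Hox* genes, in order of size. The intervals of 18 genes cross 0 and that of *Hoxc8* lies below it, before adjustment for the number of genes tested.

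The libraries of 1 genotype agreed about as closely for *Hox* genes as for other genes of like level. For the 13 *Hox* genes between 1 and 10 TPM the median coefficient of variation was 16.0% in WT and 14.7% in *Ltf*-KO libraries, where all genes in this range had 14.1% and 14.1%. For the 7 *Hox* genes between 10 and 100 TPM it was 3.88% and 5.48%, where all genes had 5.58% and 5.85%.

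Other homeobox and T-box genes that mark limb position were also measured, with a few genes of other families on the same list, among them *Shh*, *Hhip* and *Gli3*. *Tbx4*, the T-box gene of the hindlimb, was at 2.97, 3.88 and 3.54 TPM in WT and 3.73, 3.26 and 3.70 TPM in *Ltf*-KO libraries, and *Tbx5*, its forelimb counterpart, was at 0, 0 and 0.06 TPM in WT and 0.02, 0 and 0 TPM in *Ltf*-KO libraries. *Tbx4* was thus above *Tbx5* in every library. *Pitx1*, the homeobox gene that sets hindlimb identity in the bud, was at 0.08, 0.16 and 0.13 TPM in WT and 0.25, 0.14 and 0 TPM in *Ltf*-KO libraries, near 0 in both. Among the highest of the 28 genes listed were *Prrx1*, at 31.02 to 32.35 TPM, *Prrx2*, at 20.27 to 35.01 TPM, and *Lbx1*, which marks migrating limb muscle precursors, at 16.69 to 19.62 TPM. Of the 16 tested, 0 had an unadjusted p under 0.05 and 10 were higher in *Ltf*-KO, with a median log2 fold change of 0.03. Of all genes tested, 3.78% had an unadjusted p under 0.05 and 44.3% were lower in *Ltf*-KO. Without the minimum mean, *Meox1* had an unadjusted p under 0.05 (limma), as did 890 of all 26553 genes tested. It was at 0.09, 0.18 and 0.29 TPM in WT and 0.51, 0.70 and 0.52 TPM in *Ltf*-KO libraries, higher without overlap but low in all. *Shh* was listed at 0 in all 6 libraries.

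The TALE homeodomain proteins of the Pbx, Meis and Pknox families bind DNA together with Hox proteins. All 9 genes were tested and 0 had an unadjusted p under 0.05, where 3.78% of all genes tested did. *Pbx2* was at 21.16 to 35.47 TPM, *Pknox2* at 20.32 to 26.67 TPM and *Pknox1* at 12.88 to 18.34 TPM. The median log2 fold change was 0.17, with 6 of the 9 genes higher in *Ltf*-KO and each gene named overlapping between genotypes. Over all genes tested the median was 0.01 and 44.3% were lower.

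**Figure D5:**
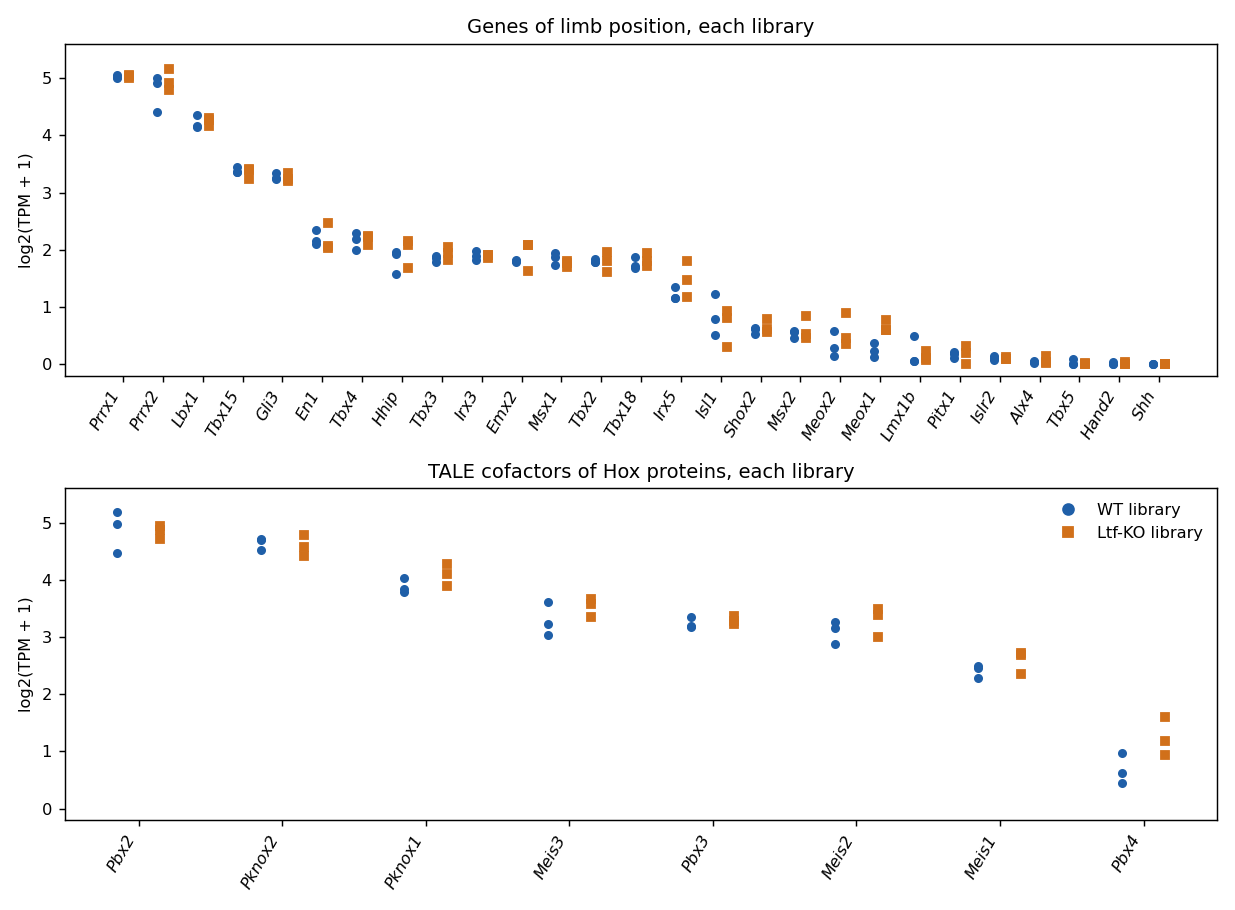
Level of genes of limb position (top) and of TALE cofactors (bottom) as log2(TPM + 1) in the 3 WT (circles) and 3 *Ltf*-KO (squares) libraries, ordered by mean. *Prrx1*, *Prrx2* and *Lbx1* lead the upper panel, *Tbx4* stands above *Pitx1* and *Tbx5*, and the genotypes overlap for the TALE genes shown.

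Polycomb and Trithorax proteins keep *Hox* genes silent or active after the embryo has set them. All 29 Polycomb genes were tested and 1 had an unadjusted p under 0.05, where 3.78% of all genes tested did. It was *Bmi1*, a subunit of the Polycomb repressive complex that marks histone H2A, at 49.95, 43.51 and 49.81 TPM in WT and 57.63, 58.69 and 51.01 TPM in *Ltf*-KO libraries. All 3 *Ltf*-KO libraries were above all 3 WT libraries, at a log2 difference of 0.22 (standard error 0.078) with a limma unadjusted p = 0.028 and adjusted p = 0.999. Of all genes tested, 2.01% were at an unadjusted p under 0.05 and higher, and 4.73% were higher without overlap. *Rbbp4*, *Rbbp7*, *Phc2* and *Eed* led the list, at 325.63 to 352.77, 259.12 to 266.47, 121.94 to 141.47 and 82.13 to 93.99 TPM. Of the 14 tested Trithorax and H3K27 demethylase genes, 0 had an unadjusted p under 0.05, and *Dpy30*, *Psip1*, *Ash2l* and *Wdr5* led them, at 97.82 to 115.27, 82.49 to 93.21, 62.63 to 64.95 and 44.24 to 49.08 TPM. Retinoic acid switches on the anterior *Hox* genes in the embryo, and of the 12 tested genes of its receptors and metabolism, among them *Rara* at 23.72 to 34.04 TPM, *Rxrb* at 22.99 to 25.22 TPM, *Rarg* at 16.98 to 22.10 TPM and *Rxra* at 15.56 to 17.88 TPM, 0 had an unadjusted p under 0.05.

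Noncoding genes of the clusters were measured beside the coding ones. Of the 18 in the table, 3 averaged 1 TPM or more. *Hoxa11os*, which is transcribed antisense to *Hoxa11*, was at 11.08, 13.67 and 11.71 TPM in WT and 15.83, 11.82 and 11.92 TPM in *Ltf*-KO libraries, and overlapped between genotypes. *Hotair*, from HoxC, was at 1.46 to 2.35 TPM and *Hotairm1*, from HoxA, at 2.38 to 8.38 TPM. Of the 3, 0 had an unadjusted p under 0.05, where 3.78% of all genes tested did. In GENCODE M21 on GRCm38, 16 of the 39 *Hox* genes share exon bases with another gene, and *Hoxa11* shares 800 of 2287 exon bases (35.0%) with *Hoxa11os* on the opposite strand. Whether the counting used strand was not given in the sources used here, so that reads from *Hoxa11* and *Hoxa11os* may not be told apart. *Hoxc10* and *Hoxc5* share 166 exon bases on the same strand, 8.70% of those of *Hoxc10* and 5.37% of those of *Hoxc5*, and how reads there were divided was not given in the sources used here. *Hoxc8* and *Hoxc4* share no exon base with another gene. Of the *Hox* genes averaging under 1 TPM, *Hoxd3* shares 62.8%, *Hoxb3* 52.9% and *Hoxd4* 52.3% of their exon bases with others. How shared reads were divided is unknown for these low values too.

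The regulators of muscle identity were measured as a comparison. *Myod1*, *Myog*, *Myf5* and *Pax7* were at 747.62 to 815.74, 266.24 to 507.77, 109.37 to 132.77 and 36.62 to 43.30 TPM. Of the 6 Pax and myogenic factor genes 0 had an unadjusted p under 0.05, where 3.78% of all genes tested did. The count was also 0 for the 7 tested genes of a further list of muscle transcription factors, among them *Eya3*, *Eya4* and *Six4* at 18.79 to 22.79, 14.94 to 19.88 and 9.67 to 11.75 TPM. The ParaHox and Evx genes, relatives of the *Hox* genes, were at 0.04 TPM or less in every library, and 5 of the 8 were listed at 0 in all 6.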

How the data were processed

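RNA was sequenced from 3 WT and 3 *Ltf*-KO SC libraries after 4 days of growth, each placed in its genotype by its label. The authors deposited TPM values with 2 decimals, extracted and normalized by the sequencing company's protocol. The labels name GRCm39 as the genome build, and the aligner and counting tool are not given in the sources used here. TPM keeps no read depth, so precision was judged from the spread between libraries. Genes were matched by gene identifier to GENCODE M21, whose GRCm38 coordinates are named as such, and promoter sequences are from RefSeq (GRCm38.p6).

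Log2(TPM + 1) was fitted with limma 3.58.1 in R 4.3.3 (lmFit, eBayes with a trend) for the 12956 genes averaging 1 TPM or more, with two-sided p-values adjusted by the Benjamini-Hochberg method at a threshold of 0.05. The fit was tested on simulated data. The *Hox* genes averaging 1 TPM or more in either genotype, those listed at 0 in all libraries, *Pitx1*, *Tbx4*, *Tbx5*, *Ltf* and, of each related list, up to 4 genes with the highest level and up to 4 at an unadjusted p under 0.05 were named, and a few neighbours and other low genes were added after their values were seen. The members and lists were chosen with earlier results of these data known. Alternatives were a pseudocount of 0.1, no filter, a minimum mean of 10 TPM, quantile normalization, median-of-ratios scaling, no variance trend, a replicate block and leaving out each library. A fixed gene set in the fits without 1 library was added after the first results of those fits had been seen. A few genes that these rules would name are not reported here one by one, and they remain in the counts and sums.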

Additional observations from a re-analysis of the deposited data

How the results depend on the processing

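The count of *Hox* genes at an adjusted p under 0.05 was 0 under every alternative run, with a smallest adjusted p of 0.946 (limma). At an unadjusted p under 0.05 there was 1, and there were 0 with a minimum mean of 10 TPM, where *Hoxc8* is not tested, and 0 with the replicate block. With 1 library left out it ranged from 0 to 3. It was 0 without WT replicate 2, WT replicate 3 or *Ltf*-KO replicate 2. Without *Ltf*-KO replicate 1 it was 3 of 19, where *Hoxa9* and *Hoxc12* joined *Hoxc8*, and 469 of all 12945 genes tested were under 0.05. In these fits the minimum mean was applied again to the 5 libraries kept. A version that held the 12956 genes of the 6-library filter was run after the results of the first were known. It gave 0 to 4 *Hox* genes. The 4 of 20 came without *Ltf*-KO replicate 1, with *Hoxc10* added, where 480 of all 12956 genes tested were under 0.05. Both versions are given because the choice moves this count and that of all genes called, which was 0 with all libraries and 0 to 7 in the first version (0, 7 and 2 without WT replicate 1, 2 and 3, and 6, 2 and 3 without *Ltf*-KO replicate 1, 2 and 3) and 0 to 6 in the second (0, 6 and 1, and 5, 2 and 4). The cause was not tested. *Hoxc8* stayed lower in every alternative that tested it, at -0.47 to -0.29 with 1 library left out and an unadjusted p of 0.020 to 0.097 over all alternatives.

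Over the whole table, 490 genes had an unadjusted p under 0.05, 890 with no filter, where more genes are tested, 281 with a minimum mean of 10 TPM, where fewer are, and 380 with the replicate block. Genes lower in *Ltf*-KO were 46.9% of the 490, 60.04% after quantile normalization and 55.8% after scaling by the median of ratios. Of the related lists, 1 gene (*Bmi1*) was at an unadjusted p under 0.05, where 490 of all 12956 genes tested were. With no filter there were 3 (*Bmi1*, *Meox1* and *Pbx4*), where 890 of all 26553 genes were. There were 2 without a variance trend, 0 with the replicate block and 1 to 4 with 1 library left out in either version. *Pbx4* was at 0.36, 0.95 and 0.54 TPM in WT and 2.04, 0.91 and 1.26 TPM in *Ltf*-KO libraries, which overlapped. Its unadjusted p was 0.058 in the main fit (limma).

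Of the 19 tested *Hox* genes that are given one by one, 13 had the same sign in every alternative. With 1 library left out the log2 fold change was -0.12 to 0.012 for *Hoxc6*, -0.0021 to 0.29 for *Hoxd8*, -0.14 to 0.053 for *Hoxc9*, also reversed at 0.044 without *Ltf*-KO replicate 3, -0.022 to 0.11 for *Hoxa11*, -0.15 to 0.032 for *Hoxa5* and -0.0040 to 0.16 for *Hoxd9*. Deviations from the genotype's mean were correlated across genes at -0.041, -0.058 and -0.088 between libraries of the same number. Between libraries of different numbers the correlations were -0.026 to 0.087. The labels do not say whether libraries of the same number were prepared together. With 3 libraries per genotype these correlations cannot settle it. With read depth unknown, low TPM cannot be given a counting error.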
